A study of Mus musculus with 8 samples.

Results

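The hyaluronan genes were followed in mouse wound skin: the enzymes that make this polymer, those that cut it, and the proteins that bind it. The 10 members were taken by symbol from the deposited count table of 18540 genes, as a set chosen with earlier results of these data known: the synthases Has1, Has2 and Has3, the breakdown genes Hyal1, Hyal2 and Cemip, and the receptors and binding proteins Cd44, Tnfaip6, Lyve1 and Hmmr. RNA from wound skin was sequenced in 4 control samples (numbered 1, 2, 3 and 5), from wounds given phosphate-buffered saline, and in 4 samples treated with Z1C2Z (numbered 1, 2, 4 and 5). Lists of values follow this order, and control-1 stands for control sample 1. Z1C2Z is a nanocomposite of zinc peroxide and cerium dioxide in the zinc imidazole framework ZIF-8, the preparation with the higher share of cerium dioxide, injected around the wound at 100 μg/kg. The sample titles say only con and shiyan with a number, and these were taken as the control and Z1C2Z groups of the study. In its account of the sequencing the study names the treatment only as ZCZ, its name for the nanocomposite at either share of cerium dioxide. The tissue was taken after 15 days of treatment. The study wounded C57BL mice aged 6 weeks and diabetic db/db mice aged 10 weeks, with a pair of wounds on each animal. Which of these strains was sequenced, and whether any samples came from the same animal, were not given in the sources used here. The p-values thus measure the spread between these samples, which may be partly technical and may be smaller than the spread between animals.

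Hyaluronan is a long unsulfated sugar chain that is made at the cell membrane and pushed straight into the matrix, where it holds water and gives early wound tissue its soft, open structure. Hyaluronidases and the CEMIP proteins cut the chain, and the pieces are taken up by receptors or finished in lysosomes. Long chains and short fragments are read differently by cells through CD44 and other receptors, and TSG-6, the product of Tnfaip6, changes the matrix by moving inter-alpha-inhibitor heavy chains onto hyaluronan.

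The libraries held between 28856790 and 38974888 counted reads. Values below are TMM-scaled CPM, read counts scaled to a common library size, unless a level per kilobase of exon is named. Some markers of other tissue moved with the groups. The summed level of 12 hair follicle markers, led by Tchh, Krt71 and Krt25, was 604 to 3732 CPM in the control samples and 4535 to 16318 CPM in the Z1C2Z samples, and 10 of the 12 passed the test upward. The summed level of 10 skeletal muscle markers, led by Acta1, Myh1 and Myh4, was 3620 to 6794 CPM against 3032 to 3459 CPM. All 10 had fold changes below 0, and 3 reached an adjusted p under 0.05. Of 7 fibroblast markers, including the matrix collagens Col3a1, Col1a2 and Col1a1, all had fold changes below 0 and 2 reached an adjusted p under 0.05, with summed levels of 55901 to 79268 CPM in the control group and 43973 to 61358 CPM in the Z1C2Z group. None of the markers on these 3 lists was at 0 in any sample. In bulk tissue, fewer cells of a type and less RNA per cell cannot be told apart.

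Of the 10 members, 4 were lower in the Z1C2Z group and none was higher. Has1, Has2, Tnfaip6 and Cd44 fell, at an adjusted p under 0.05 and a log2 fold change beyond 1 (edgeR's quasi-likelihood test, Benjamini-Hochberg adjustment over 15147 tested genes). By the same rule 1.25% of all tested genes were lower and 2.15% higher. All 10 members passed the filter on low counts. Fold changes were below 0 in 9 of them, beside 7414 of the 15147 tested genes. The median log2 fold change of the members was -0.91, beside 0.0086 for all tested genes. With the adjusted p alone the count of members stayed at 4 lower and 0 higher, where 3.85% of all genes were lower and 4.28% higher. The control and Z1C2Z values did not overlap in these same 4 members. All Z1C2Z values lay below all control values in 8.82% of the tested genes and above them in 8.45%.

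**Figure D1:**
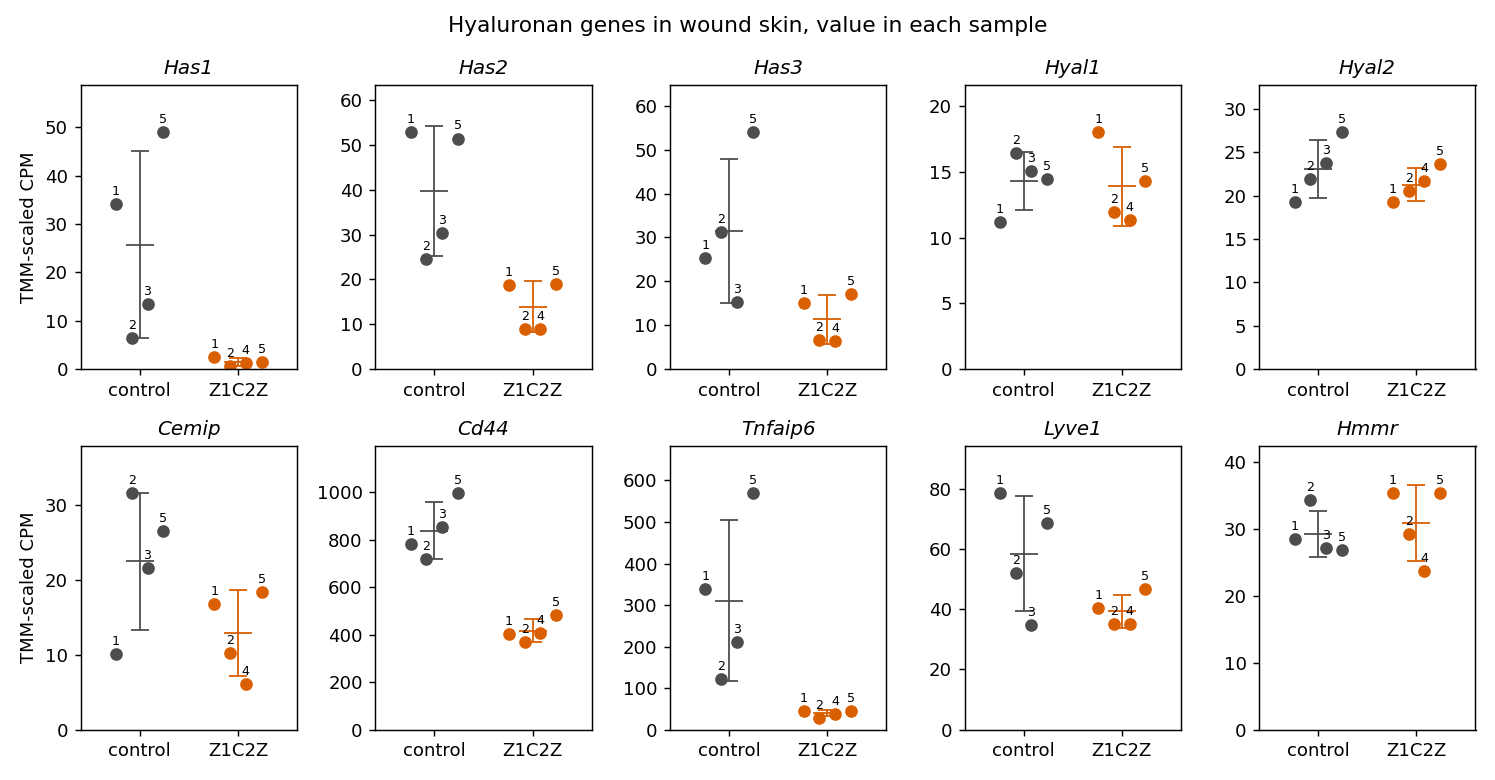
TMM-scaled CPM (vertical axes, linear, starting at 0) of the 10 members in each control (grey) and Z1C2Z (orange) sample; the number beside a point is the sample number, and the bar gives the mean with 1 SD (n = 4). The groups are fully apart for Has1, Has2, Cd44 and Tnfaip6 and overlap for the other 6 members.

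Of the 3 synthases, Has1 and Has2 fell and Has3 did not pass. Has1, which encodes the hyaluronan synthase most often tied to inflammatory stimuli, stood at 34.0, 6.44, 13.5 and 49.0 CPM in controls 1, 2, 3 and 5. It stood at 2.54, 0.622, 1.31 and 1.5 CPM in Z1C2Z samples 1, 2, 4 and 5. Control-1 and control-5 were the high samples, and even the lowest control was above every Z1C2Z sample. The Z1C2Z values rest on 24 to 90 reads a sample, against 232 to 1739 in the control group. Has1 thus fell 17.3-fold, a log2 fold change of -4.11 ± 0.68 (SE, n = 4 per group), with an adjusted p of 0.0299 by edgeR's quasi-likelihood test. The exact two-sided permutation test gave p = 0.0286, the smallest that 4 against 4 samples allow.

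Has2, the synthase with a wide role in connective tissue, measured 52.8, 24.6, 30.2 and 51.4 CPM in the control samples, in the same order. The Z1C2Z samples held 18.7, 8.94, 8.94 and 18.9 CPM. The control values again split into a higher pair, control-1 and control-5, and a lower pair, and the Z1C2Z group into Z1C2Z-1 and Z1C2Z-5 above Z1C2Z-2 and Z1C2Z-4. Has2 fell 2.87-fold (log2 fold change -1.52 ± 0.34, SE, n = 4 per group; adjusted p = 0.0363 by edgeR's quasi-likelihood test; exact two-sided permutation p = 0.0286).

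Has3, a synthase found mainly in epithelium, measured 25.4, 31.3, 15.3 and 54.0 CPM in the control samples. The Z1C2Z samples gave 15.1, 6.66, 6.35 and 17.1 CPM. Control-3 lay below Z1C2Z-5, so the groups overlapped. The log2 fold change of -1.48 ± 0.44 (SE) was close in size to that of Has2, but the adjusted p of 0.0692 by edgeR's quasi-likelihood test did not pass, and the exact two-sided permutation p was 0.0571. Has3 passed without control-3 (log2 fold change -1.71, adjusted p = 0.0473) and without Z1C2Z-5 (-1.76, adjusted p = 0.0473), and with DESeq2 (-1.49, adjusted p = 0.00348). In the GENCODE M21 annotation of GRCm38, Has2 shares 182 exon bases with the antisense transcript Has2os and Has3 shares 352 with Chtf8 on the opposite strand. Whether reads were counted by strand was not stated, so their reads may not be fully separated.

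The calls of Has1 and Has2 depended on single libraries. The adjusted p of Has1 was 0.0737 without control-5, 0.0661 without Z1C2Z-1, 0.0888 without Z1C2Z-2 and 0.0876 without Z1C2Z-4, with log2 fold changes from -4.48 to -3.58 over all 8 omissions, and it was 0.0532 with limma-voom. Has2 lost its call without those 4 libraries (adjusted p = 0.102, 0.0672, 0.107 and 0.105) and also without control-1 (0.0507) and control-2 (0.0553), with log2 fold changes from -1.71 to -1.36. No gene of the whole table passed when control-5 was left out, nor when any of Z1C2Z-1, Z1C2Z-2 and Z1C2Z-4 was, while 3223, 4208, 3137 and 3100 genes still had an unadjusted edgeR p under 0.05, beside 4248 with all samples.

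Without control-1 and control-5 together, the controls with the least hair follicle signal, the log2 fold change was -2.75 for Has1 (adjusted p = 0.0711) and -0.99 for Has2 (adjusted p = 0.154). Without Z1C2Z-2 and Z1C2Z-4, the samples with the most, it was -3.67 (adjusted p = 0.280) and -1.08 (adjusted p = 0.307). With the hair follicle score as a covariate the values were -1.85 for Has1, -0.21 for Has2 and 0.17 for Has3, and with the skeletal muscle score -3.03, -0.97 and -1.26. None of these passed. In this design the scores move with treatment, and their part in the synthase result cannot be told apart from it.

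The make-up of the synthase transcripts is given as a description, with no test. Per kilobase of exon, the 3 synthases summed to 26.6 ± 14.3 CPM per kb in the control group (SD, n = 4, range 13.8 to 44.0) and 5.75 ± 2.50 CPM per kb in the Z1C2Z group (range 3.45 to 7.98). Has1 made up 49.7%, 22.3%, 40.4% and 53.2% of that sum in controls 1, 2, 3 and 5, and 15.2%, 8.60%, 16.7% and 9.11% in Z1C2Z samples 1, 2, 4 and 5. These shares did not overlap. The Has2 share was 38.1 ± 7.51% in the control group and 57.4 ± 2.58% in the Z1C2Z group, again with no overlap, and the Has3 share was 20.5 ± 10.5% and 30.2 ± 3.08%, with overlapping ranges. By mean level per kb, Has1 was the first of the synthases in the control samples at 12.3 CPM per kb, ahead of Has2 at 9.39 and Has3 at 4.94, while in the Z1C2Z samples Has2 led at 3.27, ahead of Has3 at 1.77 and Has1 at 0.712. The control levels of Has1 and Has2 lay within each other's spread (SD 9.27 and 3.41 CPM per kb).

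**Figure D2:**
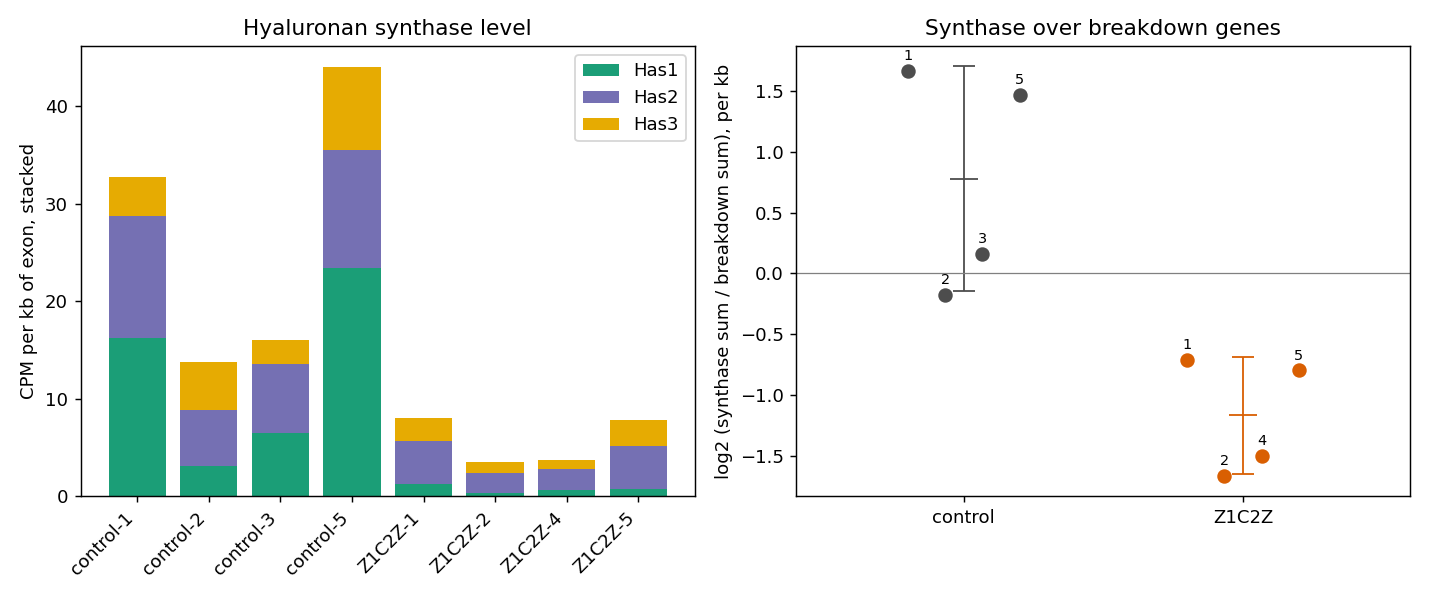
Left: summed level of Has1, Has2 and Has3 in CPM per kilobase of exon, stacked for each of the 8 samples. Right: log2 ratio of the synthase sum to the sum of Hyal1, Hyal2 and Cemip per kb in each sample, with the mean and 1 SD (n = 4 per group); the Z1C2Z samples all lie below the control samples.

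The breakdown genes among the members showed no call. Hyal1, the lysosomal hyaluronidase, ranged from 11.2 to 16.4 CPM in the control samples and from 11.3 to 18.0 CPM in the Z1C2Z samples, so the groups lay over each other (log2 fold change -0.042 ± 0.18, SE; adjusted p = 0.899 by edgeR's quasi-likelihood test). Its sign changed when control-2, Z1C2Z-2 or Z1C2Z-4 was left out. Hyal1 shares 1920 exon bases with Naa80 on the same strand and 159 with Hyal3, so its reads could be split among these genes. Hyal2, a membrane-anchored hyaluronidase, held 19.3 to 27.3 CPM in the control group and 19.3 to 23.6 CPM in the Z1C2Z group (log2 fold change -0.12 ± 0.12, SE; adjusted p = 0.563 by the same test).

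Cemip encodes a protein that binds hyaluronan and is needed for its cutting by skin fibroblasts. It was at 10.2, 31.6, 21.6 and 26.5 CPM in the control samples. The Z1C2Z values were 16.8, 10.2, 6.13 and 18.4 CPM. Control-1, high for Has1 and Has2, was the lowest control for Cemip and lay inside the Z1C2Z range. The log2 fold change was -0.81 ± 0.40 (SE), and the adjusted p of 0.223 by edgeR's quasi-likelihood test did not pass.

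The sum of Hyal1, Hyal2 and Cemip was 14.0 ± 2.57 CPM per kb in the control group and 12.0 ± 1.55 CPM per kb in the Z1C2Z group (SD, n = 4). The log2 ratio of the synthase sum to this breakdown sum was 1.66, -0.17, 0.16 and 1.46 in controls 1, 2, 3 and 5. In Z1C2Z samples 1, 2, 4 and 5 it was -0.71, -1.66, -1.50 and -0.80. All 4 Z1C2Z samples were below all 4 control samples, and the means differed by -1.94 on the log2 scale. The difference was -1.56 with raw counts in place of levels per kb and -2.07 without Cemip. The difference was given no test, since the genes in it were chosen with earlier results known. The breakdown sum holds members only and leaves out the breakdown gene Cemip2. The mean of Cemip2 was 82.7 CPM in the control group and 37.4 CPM in the Z1C2Z group. A ratio with Cemip2 in the breakdown sum was not computed.

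Among the receptors, Cd44 was the member with the smallest relative spread of those that fell. This gene encodes the main cell-surface receptor for hyaluronan. It measured 783, 720, 853 and 996 CPM in controls 1, 2, 3 and 5. It measured 403, 369, 409 and 485 CPM in the Z1C2Z samples. The coefficient of variation was 14.2% and 11.7%, and every Z1C2Z sample was far below the lowest control. Cd44 fell by 1.01 ± 0.13 on the log2 scale (SE, n = 4 per group; adjusted p = 0.0280 by edgeR's quasi-likelihood test; exact two-sided permutation p = 0.0286), which is just beyond the fold threshold. Without control-3 the log2 fold change was -0.999 and just short of that threshold, at an adjusted p of 0.0325. The adjusted p rose to 0.0618 without control-5, 0.0661 without Z1C2Z-1, 0.0888 without Z1C2Z-2 and 0.0876 without Z1C2Z-4. With the hair follicle covariate the log2 fold change of Cd44 was -0.74 (adjusted p = 0.919) and with the muscle covariate -1.05 (adjusted p = 0.0700). It was -0.92 both without control-1 and control-5 (adjusted p = 0.0686) and without Z1C2Z-2 and Z1C2Z-4 (adjusted p = 0.280).

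Lyve1, the receptor of lymphatic endothelium that is also found on some macrophages, measured 78.6, 51.8, 34.8 and 68.5 CPM in the control group. The Z1C2Z samples held 40.4, 35.0, 35.0 and 46.7 CPM. Control-3 was the lowest of all 8 samples, and the groups overlapped (log2 fold change -0.57 ± 0.23, SE; adjusted p = 0.141 by edgeR's quasi-likelihood test). Without control-3 its adjusted p was 0.0374, at -0.75 and so short of the fold threshold. The log2 fold change was 0.034 with the muscle covariate and 0.46 with the hair follicle covariate. Of 6 lymphatic endothelial markers, 2 had fold changes below 0 and 4 above, and 1 was lower, Pdpn (log2 fold change -1.15, adjusted p = 0.0485), which keratinocytes and fibroblasts can express too. The summed level of the 6 was 253 to 374 CPM in the control group and 196 to 244 CPM in the Z1C2Z group, with no overlap, and none was at 0 in any sample. Without Pdpn the sum was 117 to 151 CPM in the control group and 116 to 178 CPM in the Z1C2Z group, so the groups overlapped. The defining lymphatic factor Prox1 was at 5.52 to 9.91 CPM in the control samples and 7.79 to 11.1 CPM in the Z1C2Z samples. Flt4, the other marker below 0, went the other way, at 15.3 to 25.7 CPM and 12.4 to 15.3 CPM, with overlap. Its log2 fold change was -0.51 (adjusted p = 0.0839 by edgeR's quasi-likelihood test). The summed level of 6 macrophage markers was 2214 to 2583 CPM against 1355 to 2264 CPM, and none of them passed. Their part in the Lyve1 values was not tested.

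Hmmr encodes a hyaluronan-binding protein that works mainly on the spindle of dividing cells. It ranged from 26.8 to 34.2 CPM in the control samples and from 23.6 to 35.3 CPM in the Z1C2Z samples, with a log2 fold change of 0.081 ± 0.15 (SE; adjusted p = 0.751 by edgeR's quasi-likelihood test). Of 12 mitosis markers, 11 had fold changes above 0 and none passed, with summed levels of 629 to 812 CPM and 783 to 908 CPM.

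By mean level per kb, Tnfaip6 was the most abundant member in the control samples, at 182 ± 114 CPM per kb (SD, n = 4), beside 148 ± 21.0 for Cd44. These 2 levels did not differ beyond their spread. Tnfaip6 lay above Cd44 in control-1 and control-5. It lay below Cd44 in control-2 (71.4 against 127 CPM per kb) and control-3 (123 against 151). In the Z1C2Z group the order was Cd44 at 73.6 ± 8.62 CPM per kb and then Tnfaip6 at 22.9 ± 4.34. In CPM, Tnfaip6 stood at 340, 122, 211 and 570 in controls 1, 2, 3 and 5. In Z1C2Z samples 1, 2, 4 and 5 it stood at 44.8, 28.8, 38.8 and 44.2 CPM. The control values ranged 4.67-fold, with control-5 and control-1 highest as for Has1, and the Z1C2Z values only 1.56-fold. Tnfaip6 fell 7.93-fold (log2 fold change -2.99 ± 0.43, SE; adjusted p = 0.0294 by edgeR's quasi-likelihood test; exact two-sided permutation p = 0.0286, n = 4 per group).

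The adjusted p of Tnfaip6 was 0.0618 without control-5, 0.0661 without Z1C2Z-1, 0.0888 without Z1C2Z-2 and 0.0876 without Z1C2Z-4, with log2 fold changes from -3.26 to -2.51 over the 8 omissions. Without control-1 and control-5 together it was -2.10 (adjusted p = 0.0615), without Z1C2Z-2 and Z1C2Z-4 -2.80 (adjusted p = 0.280), with the hair follicle covariate -1.59 and with the muscle covariate -2.42, none of which passed. The summed level of 6 neutrophil markers, led by S100a9, S100a8 and Csf3r, was 572 to 1499 CPM in the control samples and 168 to 656 CPM in the Z1C2Z samples, with overlap and none passing. In this list 1 gene was at 0 in at least 1 sample. Their part in the Tnfaip6 result was not tested.

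The promoter windows of 3 of the 4 members that fell are printed to show what sequence lies at the starts of genes that moved together. RefSeq windows of GRCm38.p6, from 250 bases before to 50 after the start, matched 7 of the 10 members by gene identifier; there was none for Has2, Has3 and Lyve1. The windows lie at chr17:17855139-17855438 (minus strand), chr2:52037863-52038162 (plus strand) and chr2:102901616-102901915 (minus strand). They are given 5′ to 3′, with capitals marking a match to a searched motif.
Has1: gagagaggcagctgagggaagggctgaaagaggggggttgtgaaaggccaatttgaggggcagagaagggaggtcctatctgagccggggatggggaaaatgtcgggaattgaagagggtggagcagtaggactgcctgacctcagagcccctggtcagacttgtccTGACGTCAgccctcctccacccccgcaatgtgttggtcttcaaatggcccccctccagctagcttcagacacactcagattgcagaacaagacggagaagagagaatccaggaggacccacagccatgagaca
Tnfaip6: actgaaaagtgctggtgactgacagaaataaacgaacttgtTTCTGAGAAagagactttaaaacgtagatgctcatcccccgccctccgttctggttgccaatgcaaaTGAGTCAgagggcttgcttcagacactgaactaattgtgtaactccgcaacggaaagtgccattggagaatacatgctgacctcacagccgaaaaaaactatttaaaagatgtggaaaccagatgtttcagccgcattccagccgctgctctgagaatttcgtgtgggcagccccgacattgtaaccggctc
Cd44: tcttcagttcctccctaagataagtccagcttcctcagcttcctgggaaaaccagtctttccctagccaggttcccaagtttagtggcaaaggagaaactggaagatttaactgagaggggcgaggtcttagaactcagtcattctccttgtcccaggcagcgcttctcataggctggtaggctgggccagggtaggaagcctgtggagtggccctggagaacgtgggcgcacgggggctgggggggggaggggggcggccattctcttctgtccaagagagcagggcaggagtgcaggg

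The motifs searched, on both strands, were the STAT motif TTCNNNGAA, the AP-1 motif TGANTCA, the cyclic AMP element TGACGTCA, the TATA box TATAAA and the NF-kappa B consensus; none of the matches overlapped another. The Has1 window held the cyclic AMP element at bases -83 to -76 from the start, a match present in 1.79% of 32851 windows of the same length. The Tnfaip6 window held a STAT match at -209 to -201 and an AP-1 match at -142 to -136, which occur in 8.30% and 7.81% of windows. The Cd44 window held none of the 5 motifs. Of the members that did not pass, the Hyal2 window had an NF-kappa B match at -238 to -229 (8.46% of windows) and the Cemip window a TATA box at -29 to -24 (13.6% of windows), and the Hyal1 and Hmmr windows had no match. The G and C content was 57.0% for Has1, 47.0% for Tnfaip6 and 58.0% for Cd44. The 3 printed windows thus shared none of the searched motifs. These are letter matches, and no binding was measured.

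The other genes of the pathway were counted by role, from a list of 45 genes of which 43 were in the table and 35 passed the filter on low counts. Of these, 5 were lower and none higher, where 1.25% of all tested genes were lower. Fold changes were below 0 in 28 of the 35 and above in 7, beside 7414 of all 15147 tested genes below 0. The median log2 fold change of the 35 was -0.38, beside 0.0086 for all tested genes. With the adjusted p alone 7 were lower, where the share over all tested genes was 3.85%. Control and Z1C2Z samples were apart, with Z1C2Z lower, in 12 of the 35, beside 8.82% of all tested genes. No gene of this list was called once control-5 or any 1 of Z1C2Z-1, Z1C2Z-2 and Z1C2Z-4 was left out, as for the whole table.

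Of 10 genes that supply the sugar precursors, 3 were lower and 7 had no overlap between the groups, beside 1.25% lower and 8.82% fully below over all tested genes. All 10 had fold changes below 0, beside 7414 of all 15147 tested genes. Ugdh, which makes UDP-glucuronic acid, held 355, 252, 281 and 385 CPM in controls 1, 2, 3 and 5. The Z1C2Z samples held 141, 129, 133 and 166 CPM, all below the lowest control. Ugdh fell by 1.16 ± 0.15 on the log2 scale (SE; adjusted p = 0.0280 by edgeR's quasi-likelihood test). Gfpt2, an entry enzyme of the hexosamine pathway, ranged from 87.9 to 195 CPM in the control group and from 32.9 to 63.0 CPM in the Z1C2Z group, with control-1 and control-5 highest, and fell by 1.56 ± 0.31 (adjusted p = 0.0303). Uap1, which makes UDP-N-acetylglucosamine, ranged from 117 to 270 CPM and from 74.9 to 106 CPM and fell by 1.12 ± 0.28 (adjusted p = 0.0465). Gnpnat1, a middle enzyme of the same pathway, was at -0.56 on the log2 scale with an adjusted p of 0.0343 and was named after its value was seen. The call of Uap1 was also lost without control-1 (adjusted p = 0.0645) and control-2 (0.0578) and with limma-voom (0.0587), and with the hair follicle covariate its log2 fold change was 0.12, while those of Ugdh and Gfpt2 were -0.61 and -0.31.

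Among further breakdown genes, 6 of 10 were tested. Beside 1.25% of all tested genes, 1 of these 6 was lower. This was Cemip2, which encodes a membrane protein related to CEMIP, at 81.1, 69.4, 68.4 and 112 CPM in the control samples. In the Z1C2Z samples it was at 38.9, 31.4, 33.9 and 45.2 CPM. Every Z1C2Z sample was below every control, and Cemip2 fell by 1.15 ± 0.18 on the log2 scale (SE; adjusted p = 0.0299 by edgeR's quasi-likelihood test). The lysosomal enzyme gene Hexa, the most abundant of the list, was at -0.35 on the log2 scale (adjusted p = 0.115), with no overlap between its groups. The proposed exporter gene Abcc5 was at 43.8 to 56.4 CPM in the control group and 36.8 to 58.6 CPM in the Z1C2Z group (log2 fold change -0.11, adjusted p = 0.668).

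None of 5 further receptor genes was lower by the fold rule. Fold changes were below 0 in 4 of them and above in 1, with a median log2 fold change of -0.69. In 3 of the 5, all Z1C2Z values lay below all control values, beside 8.82% of all tested genes. Layn, the gene of the hyaluronan receptor layilin, ranged from 22.9 to 46.3 CPM in the control samples and from 15.2 to 20.1 CPM in the Z1C2Z samples. Its log2 fold change was -0.88 with an adjusted p of 0.0397, and it was named after its value was seen. The scavenger receptor gene Stab1, the most abundant of the 5, was at -0.48 on the log2 scale (adjusted p = 0.338). Of 8 hyaluronan-binding proteoglycans and link proteins, 5 were tested and none passed, with Vcan, the gene of versican, at -0.77 (adjusted p = 0.0751). None of the 3 genes that link CD44 to the actin skeleton passed, with Msn, the gene of moesin, at -0.59 (adjusted p = 0.0753).

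A further list held the heavy chain, bikunin and pentraxin genes. Of their products, the heavy chains are those that TSG-6 moves onto hyaluronan. Of the 7 genes on this list, 5 were tested and 3 had fold changes above 0. Beside 1.25% of all tested genes, 1 of the 5 was lower. Ptx3, a secreted pentraxin that binds TSG-6 and heavy chains, measured 373, 30.5, 19.0 and 166 CPM in controls 1, 2, 3 and 5. The Z1C2Z samples held 13.7, 8.71, 7.03 and 19.2 CPM. Control-1 and control-5 were far above the other 6 samples, and control-3 lay just below Z1C2Z-5. Ptx3 fell by 3.59 ± 0.90 on the log2 scale (SE; adjusted p = 0.0448 by edgeR's quasi-likelihood test), but without control-1 it stood at -2.57 on that scale (adjusted p = 0.0580), lost its call without control-2 (0.0591) and with limma-voom (0.108), and stood at -1.03 without control-1 and control-5 together (adjusted p = 0.176). With the hair follicle covariate its sign turned, to 1.02. Itih5, the most abundant heavy chain gene here, was at 0.10 (adjusted p = 0.719).

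**Figure D3:**
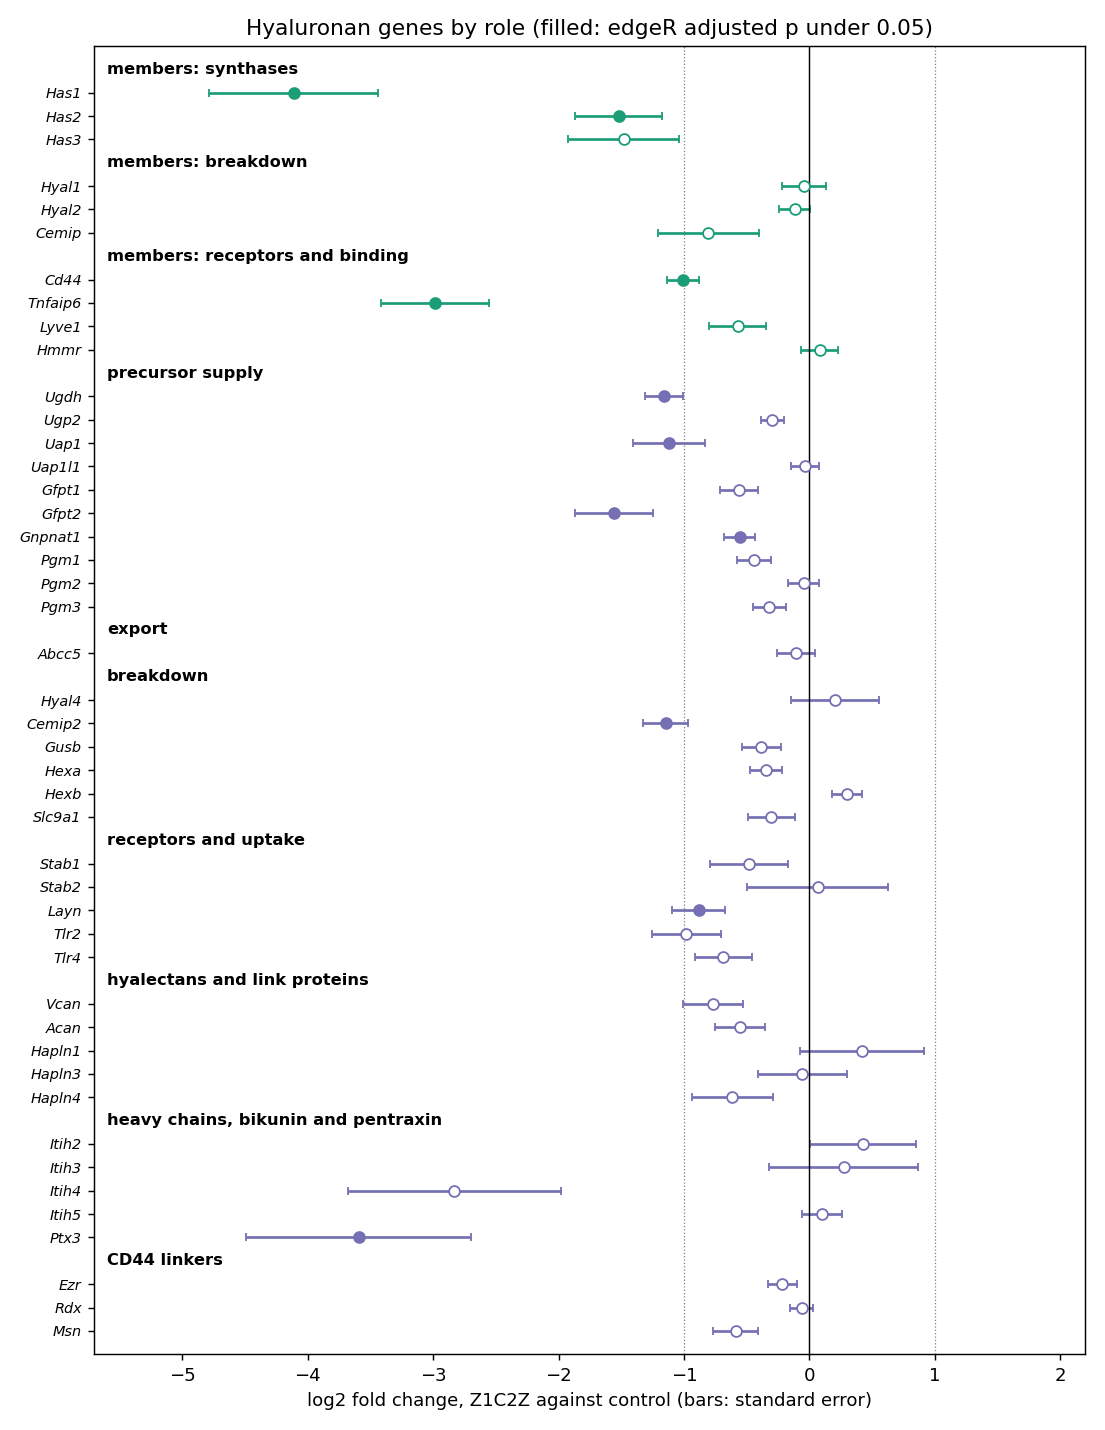
Log2 fold change, Z1C2Z against control, with its standard error (horizontal axis) for the 10 members (green) and the 35 tested other pathway genes (purple), by role; filled points have an edgeR adjusted p under 0.05 and dotted lines mark a log2 fold change of 1 in each direction. The filled points all lie to the left of 0, with Has1, Ptx3 and Tnfaip6 furthest out.

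The plot of members under other settings gives the spread of each fold change over 18 alternatives. Has1, Has2, Tnfaip6 and Cd44 stayed below 0 in all 18, with an adjusted p under 0.05, whatever the fold, in 9, 8, 10 and 10 of them. Cemip and Hyal2 also stayed below 0 and Hmmr above 0 in all 18, and none of these 3 reached that adjusted p in any. Has3 reached it in 4 of the 18 and Lyve1 in 1, where the fold of Lyve1 was short of the threshold.

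**Figure D4:**
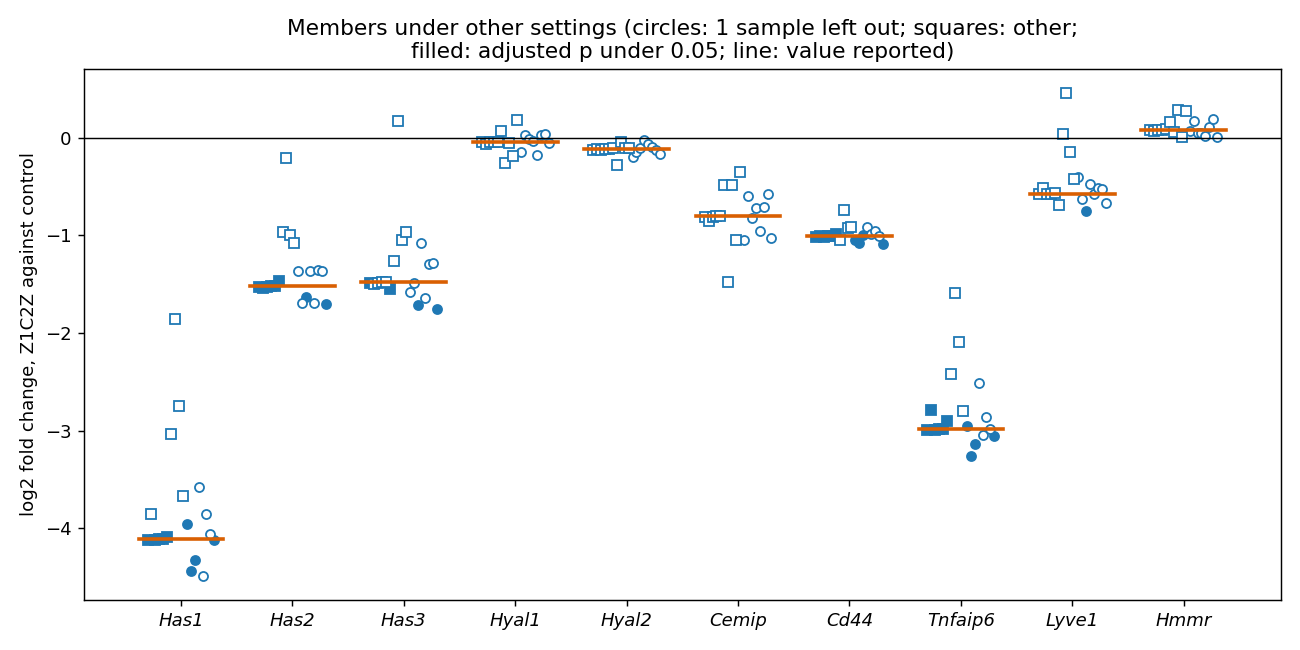
Log2 fold change, Z1C2Z against control (vertical axis), of the 10 members under each of 18 other settings: circles leave out 1 sample, squares are other alternatives, filled marks have an adjusted p under 0.05, and the orange line is the value reported. All marks of Has1, Has2, Cd44 and Tnfaip6 lie below 0, and Has3, Hyal1 and Lyve1 cross it.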

How the data were processed

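Wound skin RNA of 4 control and 4 Z1C2Z samples was sequenced after ribosomal RNA depletion with a strand-marking dUTP kit. What the authors deposited is a table of raw read counts for 18540 genes, not normalized. The aligner, counter, genome build and strand setting are not given in the sources used here. Totals were 28856790 to 38974888 counts, and no pair of libraries agreed within sampling noise (smallest chi-square per degree of freedom 21.7).

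Groups came from the sample titles. Genes were filtered with filterByExpr (15147 kept), scaled by TMM and tested with edgeR 4.0.16 (quasi-likelihood test, R 4.3.3), with no covariate and Benjamini-Hochberg adjustment over all kept genes. Calls needed an adjusted p below 0.05 together with a log2 fold change beyond 1 in either direction. Standard errors of the edgeR log2 fold changes were derived from the test, as the absolute log2 fold change over the square root of its F statistic. Single values were also compared by the exact two-sided permutation test over 70 arrangements. Levels per kb used exon lengths of GENCODE M21 (GRCm38), which may not be the authors' annotation. The steps were also run on simulated counts, drawn for each gene separately with known changes planted. Those counts held no signal shared across genes, such as that of the marker scores, so they do not test the calls against it.

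All members were named. Of other pathway genes, those called and the most abundant of each role were named. Of marker lists, at most 3 of the most abundant genes were named, and of genes with a deposited hyaluronan annotation, those called. Gnpnat1, Layn, Nfkb1, Prox1 and Flt4 were named beyond these rules, after their values were seen. The members and lists were chosen with earlier results of these data known. The alternatives were DESeq2 1.42.0, limma-voom (limma 3.58.1), DESeq2-style RLE size factors, other count filters, a replicate block, marker scores as covariates, omission of each sample or of a pair, and no fold threshold. They were also run for the pathway and annotation lists, which was chosen after seeing the data, as was the lymphatic sum without Pdpn.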

Additional observations from a re-analysis of the deposited data

How the results depend on the processing

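By setting, the genes called lower and higher among all tested genes (189 and 326 as reported), the members lower (4), the other pathway genes lower (5) and the annotated genes lower and higher (5 and 1) were as follows. DESeq2 gave 333 and 433, with 5, 6, 8 and 1. Limma-voom gave 166 and 194, with 3, 3, 4 and 1. The filter of at least 10 counts in every sample gave 176 and 234. No fold threshold gave 583 and 648, with 4, 7, 7 and 1. The muscle covariate gave 10 and 4 and the omission of controls 1 and 5 gave 9 and 4; the hair follicle covariate gave 1 and 0, and the omission of Z1C2Z 2 and 4 gave 0 and 0. None of these 4 settings called any gene of the 3 lists. RLE size factors and no filter left the members at 4.

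Leaving out each sample in turn gave 0 to 316 genes lower and 0 to 463 higher, 0 to 5 members lower, 0 to 6 pathway genes lower, and 0 to 8 annotated genes lower and 0 to 1 higher. The log2 ratio difference of synthases to breakdown genes ranged from -2.26 to -1.65.

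The replicate block gave 184 genes lower and 271 higher, with 4 members, 5 pathway genes and 6 annotated genes lower and 0 annotated genes higher; the log2 fold change of Cd44 was then -0.99, short of the fold threshold, and Has3 passed at -1.55. The correlation of deviations of same-numbered samples was -0.10, -0.062 and 0.32 for numbers 1, 2 and 5, so the numbers were not taken to pair samples.

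Signs turned for Has3 with the hair follicle covariate (0.17), for Hyal1 with the block (0.067) and without Z1C2Z 2 and 4 (0.17), with a range of -0.18 to 0.041 over single omissions, and for Lyve1 with the muscle (0.034) and hair follicle (0.46) covariates. The cause was not tested. In the edgeR fit as reported, with 4 samples a group and no covariate, no gene had an adjusted p below 0.0232.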

Other observations

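The deposited annotation names hyaluronan in 49 genes, of which 42 were tested; 5 were lower, the 4 members that fell and Cemip2, and 1 was higher, with a median log2 fold change of -0.31. Over all tested genes 1.25% were lower and 2.15% higher, so the 1 higher gene of 42 was near the background. The 5 lower genes were all members or on the role lists, which were chosen with earlier results known. Of the 42, 18 were neither members nor on the role lists. Among these 18, the median log2 fold change was -0.21, 0 were lower and 1 was higher. Impg1, which encodes a hyaluronan-binding matrix proteoglycan known from the retina, was this gene, at 0.789 to 1.49 CPM in the control samples and 1.97 to 3.62 CPM in the Z1C2Z samples (log2 fold change 1.37 ± 0.27, SE; adjusted p = 0.0303 by edgeR's quasi-likelihood test), on 28 to 42 and 76 to 144 reads. Its adjusted p was 0.0651 without control-2, 0.0824 without control-5, 0.0678 without Z1C2Z-1, 0.0888 without Z1C2Z-2, 0.0932 without Z1C2Z-4 and 0.126 with the replicate block, and its log2 fold change was 1.24 to 1.67 over all 18 alternatives. Nfkb1, the gene of an NF-kappa B subunit, named after its value was seen, ranged from 132 to 197 CPM in the control group and 89.0 to 118 CPM in the Z1C2Z group. Its adjusted p was 0.0470 by the same test, at a log2 fold change of -0.57, and its values under other settings are not given. By the adjusted p alone it was the 1 lower gene of the 18, beside 3.85% of all tested genes. In 6 of the 18, all Z1C2Z values lay below all control values, beside 8.82% of all tested genes.

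Other marker lists gave overlapping summed levels. Blood endothelial markers stood at 305 to 824 CPM in the control group and 255 to 497 CPM in the Z1C2Z group, epidermal keratinocyte markers at 11562 to 13899 and 12665 to 17902 CPM, and wound keratinocyte markers at 2822 to 6388 and 2319 to 4209 CPM. Adipocyte markers stood at 103 to 162 and 77.8 to 123 CPM, T cell markers at 11.4 to 30.4 and 14.3 to 23.9 CPM, and mast cell markers at 122 to 220 and 116 to 160 CPM. None of these markers passed the test.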
